A study of Mus musculus with 8 samples.

Results

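RXR binding was examined at the genes of histone lysine modifiers, the enzymes that add or remove acetyl and methyl groups on the lysines of histone tails. The genes were the protein-coding genes of the RefSeq table (mouse build mm10, GRCm38.p6) whose symbols start with Kdm, Kmt, Kat, Hdac, Sirt or Setd followed by a digit, with Hdac3 left out. This gave 59 of 21887 protein-coding genes. A peak was assigned to a gene when its summit, the position of the highest signal, lay within 10 kb of either gene end. By this rule 114 of the 23961 deposited peaks belonged to the set. Retinoid X receptor (RXR) was located on cardiac chromatin of whole mouse hearts on the day of birth (P0) by ChIP-seq, the sequencing of DNA that an RXR antibody pulls down. The hearts were wild type (WT) or edKO, in which the cardiomyocytes were RXRab-/-, and the labels name no treatment for either. There were 2 hearts per genotype, called replicates 3 and 4, and every heart had its own immunoprecipitate and input. Sources used here do not name the Cre line. The other cell types of the edKO hearts keep their RXR genes, so fewer bound cells and less binding per cell cannot be told apart in these whole-heart libraries. Peak lists hold no transcript levels, so neither the deletion nor the cell types could be checked with marker genes.

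RXR is the partner with which many nuclear receptors, among them the receptors for fatty acids, oxysterols, thyroid hormone and retinoic acid, bind DNA. With a ligand bound, such pairs recruit acetyltransferases, and without one they can recruit deacetylases, so histone lysine modifiers are known as the cofactors through which nuclear receptors act. Kat enzymes write acetylation, and Hdac and Sirt enzymes erase it, the sirtuins with NAD as a cofactor. Kmt and Setd proteins are mostly methyltransferases, and Kdm proteins remove methyl groups with flavin or with iron and 2-oxoglutarate. In the heart, class IIa deacetylases are known to restrain growth genes driven by MEF2 factors.

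Sequences are given where a region found in both WT hearts had its summit in a RefSeq promoter window, which holds 250 bases before and 50 after a transcript start. Of the 59 genes, 48 had an entry in that table. The sequences are RefSeq's (GRCm38.p6) and run 5′ to 3′ on the strand of the transcript. The stretches shown are the parts outside protein-coding genes, or 30 bases where the site lay inside one. In the first set the capitals mark the nuclear receptor half-site AGGTCA, or its reverse complement TGACCT, because these are the windows that hold one. The Kat7 stretch is chr11:95310247-95310496 on the minus strand, the Kdm1a stretch chr4:136602788-136602973 on the minus strand, and the Kmt2e stretch chr5:23433368-23433397 on the minus strand, that of an opposite transcript inside Kmt2e.
Kat7: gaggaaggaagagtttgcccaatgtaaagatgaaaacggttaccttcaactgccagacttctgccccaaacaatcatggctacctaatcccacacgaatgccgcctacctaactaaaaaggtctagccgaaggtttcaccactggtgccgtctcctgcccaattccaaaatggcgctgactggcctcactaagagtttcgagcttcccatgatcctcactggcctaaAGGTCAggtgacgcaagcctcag
Kdm1a: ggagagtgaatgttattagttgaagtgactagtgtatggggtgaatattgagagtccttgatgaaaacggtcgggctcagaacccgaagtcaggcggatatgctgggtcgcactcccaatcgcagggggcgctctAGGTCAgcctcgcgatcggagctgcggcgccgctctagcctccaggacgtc
Kmt2e: attggctgacgaTGACCTcatgctgcagca
The half-site lay 28 bp from the summit of WT replicate 3 at Kat7, 43 bp from it at Kdm1a and 75 bp from it at Kmt2e. In the second set no such half-site was found in the 250 bases before the start, and the capitals mark the 21 bases centred on the summit of WT replicate 3. The Kmt5c stretch is chr7:4739877-4740091, the Kat14 stretch chr2:144368782-144368982 and the Sirt2 stretch chr7:28766558-28766587, all on the plus strand.
Kmt5c: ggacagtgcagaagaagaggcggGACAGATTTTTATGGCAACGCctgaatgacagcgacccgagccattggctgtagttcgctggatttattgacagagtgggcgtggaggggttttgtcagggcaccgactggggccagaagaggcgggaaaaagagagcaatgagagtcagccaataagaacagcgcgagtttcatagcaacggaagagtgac
Kat14: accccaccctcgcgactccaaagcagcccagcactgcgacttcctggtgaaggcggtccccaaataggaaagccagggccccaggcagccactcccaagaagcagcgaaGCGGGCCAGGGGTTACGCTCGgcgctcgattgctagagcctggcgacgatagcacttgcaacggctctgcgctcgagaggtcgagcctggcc
Sirt2: ctacaCCCCGCCCCTGTACTGCACCAcagc
Among all 32851 promoter windows, 16.3% held AGGTCA on either strand. The share was 20.1% of the 1000 windows with the summit of a region found in both WT hearts, and 13.2% of the 68 windows of histone lysine modifier genes. The direct repeat known as DR1, AGGTCA followed in the same direction by a second AGGTCA after 1 base of any kind, was searched on both strands with up to 1 mismatch in its 12 fixed bases. It was found in 0.554% of all windows, in 1.1% of those with such a summit and in 0 of the 68. The repeat known as DR4, with 4 bases of any kind between the same half-sites, was found in 0.25%, 0.6% and 0 of these windows by the same rule. Only 5 of the 68 windows held the summit of a region found in both WT hearts. The shares for the 68 therefore mostly describe promoters of the set without such a summit. Sequence around summits outside the windows was not searched. The half-site is part of both repeats, and these matches describe letters in a window, not bound sites.

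The authors called peaks heart by heart. The list of WT replicate 3 held 19129 peaks and that of WT replicate 4 held 4697, whereas the edKO lists held 8 (replicate 3) and 127 (replicate 4). The number of fragments behind each peak was recovered from the deposited fold enrichment and −log10 p. The lowest number at any summit was 11, 12, 24 and 17 fragments in the same order, over lowest local backgrounds of 2.48, 2.32, 3.11 and 2.96 fragments. The difference in length between the WT lists touches every count that needs a peak in both hearts.

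The first comparison asked how RXR peaks at these genes differ between WT and edKO hearts. WT replicate 3 had 85 peaks at histone lysine modifier genes and WT replicate 4 had 25, while edKO replicate 3 had 1 and edKO replicate 4 had 3. Both WT numbers lay above both edKO numbers. The means were 55 ± 42.4 (SD, n = 2) and 2 ± 1.41 (SD, n = 2). An exact permutation test gave a two-sided p = 0.333, the smallest that 2 hearts against 2 allow. The peaks at these genes made up 0.444% and 0.532% of the WT lists (replicates 3 and 4), and 12.5% and 2.36% of the edKO lists, where they rest on the single peak and the 3 peaks. The edKO lists were shorter as a whole, and whether these genes differ from the rest in this was not tested.

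A region found in both WT hearts was defined as a pair of peaks, one from each, that share at least 1 bp. Of the 25 peaks of WT replicate 4 at these genes 24 overlapped one, or 96% (95% Clopper-Pearson interval 79.6 to 99.9%), beside 94.4% of all its peaks. In the other direction 22 of 85 peaks did, or 25.9% (17.0 to 36.5%), beside 22.9% of all peaks. Within the list of WT replicate 3 the median fold enrichment of the 22 overlapping peaks was 10.4, on a median of 38.5 fragments at the summit. The other 63 peaks had medians of 5.02 and 19 fragments. With 1 peak per heart in each region, the overlaps gave 21 regions near 16 genes. Of the 85 peaks, 55 had the summit within 1 kb of a protein-coding gene end (64.7%, against 31.2% of all peaks of that heart). The 10 kb rule favours such summits, since peaks farther from the ends of these genes were left out.

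The 16 genes were 27.1% of the 59, while 15.2% of all protein-coding genes had such a region. The Kdm demethylases had 6 of 18 genes with a region in both WT hearts: Kdm1a, Kdm1b, Kdm2a, Kdm2b, Kdm4a and Kdm6b. Among the Kmt methyltransferases 3 of 8 genes did (Kmt2b, Kmt2e and Kmt5c), and among the Setd genes 3 of 8 (Setd1b, Setd2 and Setd5). The acetyltransferase genes had 3 of 8 (Kat6b, Kat7 and Kat14) and the sirtuins 1 of 7 (Sirt2). None of the 10 Hdac genes had one. With only 7 to 18 genes a family, these shares were not tested against each other. Counted on WT replicate 3 alone, 44 of the 59 genes had a peak (74.6%, against 42.4% of all genes), and on WT replicate 4 alone 16 did (27.1%, against 15.8%). In WT replicate 3 the genes with a peak were 12 of 18 Kdm, 8 of 8 Kmt, 6 of 8 Kat, 5 of 10 Hdac, 6 of 7 Sirt and 7 of 8 Setd genes. At least 3 peaks of that heart lay at 13 of the 59 genes (22%, against 7.03%). Of the 16 genes with a region in both hearts 4 had 2 or more, namely Kdm6b, Setd1b, Kdm2a and Setd2 (25%, against 15.3% of all genes with a region). The genes of the set were long, with a median of 42409 bp beside 17169 bp over all genes, and the part of length in these shares was not tested.

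**Figure D1:**
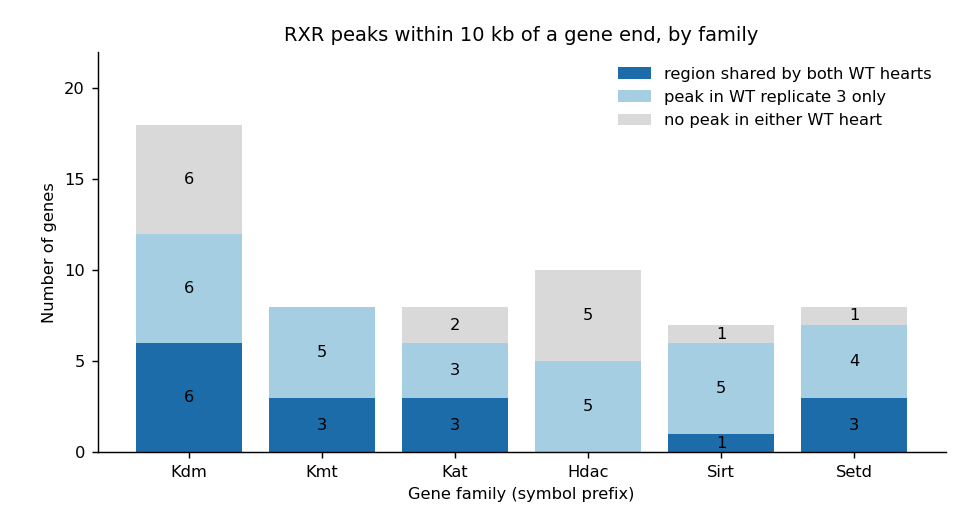
Number of histone lysine modifier genes in each family (vertical axis) by symbol prefix (horizontal axis), split by where a peak summit lay within 10 kb of a gene end. The Hdac bar has 5 genes with a peak in WT replicate 3 only and 5 without a peak, and no gene with a region in both WT hearts, while all 8 Kmt genes had a peak in WT replicate 3.

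Taking the strongest region of each of the 16 genes and its mean fold enrichment in WT, the median was 8.49, with a range from 5.48 at Kdm4a to 41.3 at Kdm6b. The same median over all 3318 genes with a region was 7.97. Counted by region, 6 of the 21 were among the strongest 10% of all 4342 regions, or 28.6%. Fold enrichment is the authors' value, the signal at the summit over the local background of the same heart. Across the 21 regions the folds of the WT hearts had a Spearman rank correlation of 0.66, beside 0.56 across all regions, and the regions share libraries. The fold was higher in WT replicate 3 at 17 of 21 regions (81%), as at 82.7% of all regions, and the median ratio between the hearts was 1.43, beside 1.49 overall.

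**Figure D2:**
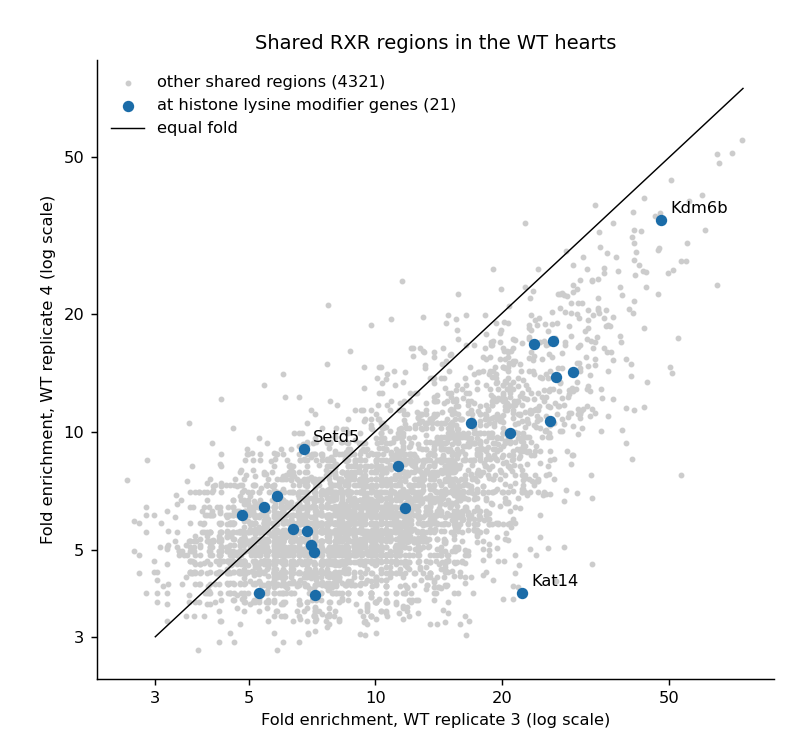
Fold enrichment in WT replicate 3 (horizontal, log scale) and WT replicate 4 (vertical, log scale) at every region found in both WT hearts. Blue points are the 21 regions at histone lysine modifier genes, grey points the others and the line marks equal folds. Kdm6b lies at 47.9 and 34.7, Kat14 far below the line at 22.4 and 3.87, and Setd5 above it at 6.76 and 9.05.

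Kdm6b, which encodes the demethylase JMJD3 that removes the Polycomb methyl mark, had the strongest region of the set. It lay inside the gene (chromosome 11, 69417457 to 69418807), and its summit was 2171 bp from the gene end that faces Dnah2. The fold enrichment was 47.9 in WT replicate 3 and 34.7 in WT replicate 4, or 41.3 ± 9.37 (SD, n = 2), which placed it at rank 13 of 4342 regions. These folds rest on 171 and 118 fragments at the summit over backgrounds of 2.59 and 2.32. The summits of the hearts were 13 bp apart. In edKO replicate 4 a peak with 40 fragments over a background of 2.96 remained at this place (fold 10.4, 95% Poisson interval 7.47 to 14.0), and edKO replicate 3 had no peak there.

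A second region near Kdm6b lay beyond its other end, on chromosome 11 from 69396608 to 69397184, with folds of 26.1 and 10.6. Its summit was 1600 bp outside Kdm6b and inside Tmem88, a membrane protein gene, and the nearest gene end was that of Naa38 at 237 bp. This region had 1 of the 8 peaks of edKO replicate 3, with 24 fragments over a background of 3.11 (fold 6.04), and no peak in edKO replicate 4. Within 10 kb of a gene end, WT replicate 3 had 4 further peaks inside the gene. Those with folds of 15.2, 5.02 and 4.27 met no peak of WT replicate 4, and the one with a fold of 9.47 met the edge of the long WT replicate 4 peak of the strongest region. A weak WT replicate 4 peak with a fold of 4.84, inside Naa38 and beside Tmem88, was the 1 of its 25 that overlapped none of WT replicate 3.

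Setd1b, a catalytic subunit of the COMPASS complexes that methylate histone H3 at active promoters, had 3 regions, the most of any gene in the set. All lay outside Setd1b and inside its neighbour Rhof, a small GTPase gene whose end was nearer to each summit. The strongest, on chromosome 5 from 123134437 to 123135159, had its summit 7266 bp from Setd1b and folds of 29.6 and 14.2 (116 and 49 fragments). The next, from 123135433 to 123137297 at 5908 bp, had folds of 20.9 and 9.92. The third, from 123137641 to 123138906 at 3520 bp, had folds of 11.3 and 8.17. A peak of edKO replicate 4 with 25 fragments lay in the strongest of them (fold 5.32, interval 3.52 to 7.76). Closer to Setd1b, WT replicate 3 had a weak peak at 572 bp with a fold of 3.19. It too had its summit inside Rhof, whose end was nearer.

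Kmt5c, which encodes a methyltransferase for histone H4 in heterochromatin, had its region at the gene start, on chromosome 7 from 4739361 to 4740426. The summit lay 182 bp outside the gene, with no other protein-coding gene within 10 kb, in the stretch shown above. Folds were 26.5 in WT replicate 3 and 17.1 in WT replicate 4, on 148 and 66 fragments, and 5.12 in edKO replicate 4 on 23 fragments (interval 3.32 to 7.57). Of the genes in the set with an edKO peak, only Kmt5c had it within 1 kb of its own end.

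**Figure D3:**
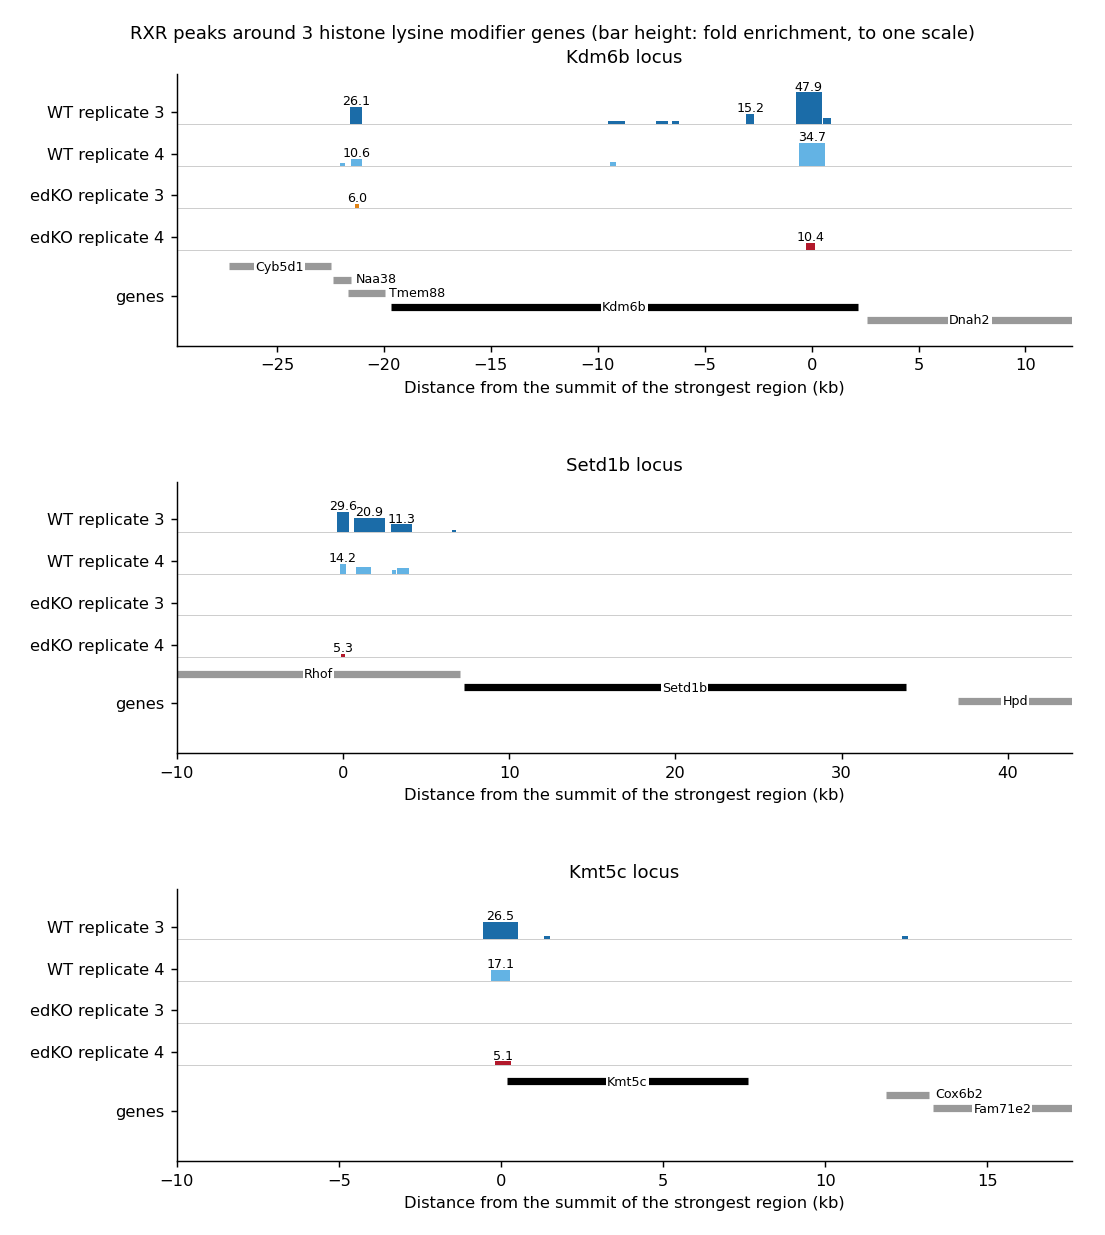
Peaks of the 4 hearts around Kdm6b, Setd1b and Kmt5c. The horizontal axis is the distance in kb from the WT replicate 3 summit of the strongest region, bar height is the fold enrichment to one scale with values printed above the higher WT bars and all edKO bars, and the lower bars are protein-coding genes. The edKO bars, at 6.04 to 10.4 for Kdm6b, 5.32 for Setd1b and 5.12 for Kmt5c, sit under the highest WT bars of their place, and the Setd1b regions fall on Rhof.

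Kdm6b, Setd1b and Kmt5c were the genes of the set with a peak in an edKO heart: 1 gene in edKO replicate 3 (1.69% of the 59, against 0.0548% of all genes) and 3 in edKO replicate 4 (5.08%, against 0.58%). With only the nearest gene counted, 2 genes had one, Kdm6b and Kmt5c. Of the 21 regions, 1 overlapped a peak of edKO replicate 3 and 3 overlapped a peak of edKO replicate 4. Over all 4342 regions the shares were 0.184% and 2.88%. The 3 regions with a peak of edKO replicate 4 were also the 3 with the highest mean WT fold, and with so few peaks no finer comparison was made.

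Other strong regions lay at Kmt2e and Kat6b, and neither had an edKO peak. Kmt2e encodes a SET-domain protein related to the trithorax methyltransferases. Its region lay inside the gene on chromosome 5 from 23432761 to 23434493, 424 bp from one gene end, with folds of 27.0 and 13.8 on 93 and 47 fragments. Kat6b encodes the acetyltransferase MORF, and its region lay 1965 bp inside the gene start on chromosome 14 from 21500030 to 21501383, with folds of 23.9 and 16.7 on 89 and 68 fragments. Both had no other protein-coding gene within 10 kb of the summit. The Kat6b folds have 95% counting intervals of 19.2 to 29.3 and 13.01 to 21.1, which overlap, whereas those of Kmt2e (21.8 to 33.0 and 10.2 to 18.3) do not.

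Kat14 showed the largest difference between the WT hearts within the set. It encodes a subunit of the ATAC acetyltransferase complex, and the summit of its region (chromosome 2, 144368576 to 144369375) lay 131 bp before Kat14 and 82 bp from Pet117, a cytochrome oxidase assembly gene. The fold was 22.4 in WT replicate 3 on 77 fragments and 3.87 in WT replicate 4 on 19 fragments, a ratio of 5.78. The local background was 2.48 fragments in the first heart and 4.0 in the second. The mean fold was 13.1 ± 13.1 (SD, n = 2), a spread as wide as the mean itself.

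The CXXC demethylases Kdm2a and Kdm2b, which bind unmethylated CpG islands, followed. Kdm2a had a pair of regions inside the gene, on chromosome 19 from 4397271 to 4398177 (folds 16.9 and 10.5) and from 4398215 to 4398534 (5.45 and 6.42), with summits 917 and 389 bp from one gene end. At Kdm2b the summit lay 2335 bp before the gene start (chromosome 5, 122991438 to 122991810) and the folds were 11.8 and 6.39. The first Kdm2a region was the stronger one in both hearts. Both Kdm2a summits also lay inside an overlapping protein-coding gene without a common name, whose end was nearer at 837 and 309 bp, so Kdm2a had no region when only the nearest gene was counted.

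The remaining regions were weak, with mean folds from 4.59 to 7.90 and 15 to 37 fragments at a summit. Setd5, a SET-domain chromatin regulator, had folds of 6.76 and 9.05 with its summit 753 bp before the gene start (chromosome 6, 113076141 to 113076919). Sirt2, a largely cytoplasmic NAD-dependent deacetylase, had 5.83 and 6.84 at 179 bp before its start (chromosome 7, 28766288 to 28766740), inside the end of the neighbouring Nfkbib, an inhibitor of NF-kappaB. Kat7, the acetyltransferase HBO1, had 6.89 and 5.57 at 51 bp before its start (chromosome 11, 95309623 to 95310677). In these 3 regions the counting intervals of the WT hearts overlapped.

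Kmt2b, a trithorax methyltransferase, had 7.03 and 5.13 inside the gene at 1017 bp from one end (chromosome 7, 30587883 to 30588382). The flavin-dependent demethylases Kdm1a and Kdm1b both had a region at the gene start. At Kdm1a the summit lay 3 bp outside the gene (chromosome 4, 136602617 to 136602939) with folds of 7.18 and 3.83. The Kdm1b summit lay 196 bp inside it (chromosome 13, 47043265 to 47043752) with folds of 7.16 and 4.93, and 231 bp from its neighbour Tpmt. Setd2, which methylates histone H3 behind the elongating polymerase, had 6.36 and 5.65 at its start (chromosome 9, 110532693 to 110533206) and 5.30 and 3.88 at 6241 bp beyond its end, inside Nbeal2. Kdm4a, a demethylase linked to cardiac hypertrophy, had 4.82 and 6.13 at 1615 bp beyond its end (chromosome 4, 118134860 to 118135524), where the sialyltransferase gene St3gal3 was nearer at 370 bp.

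**Figure D4:**
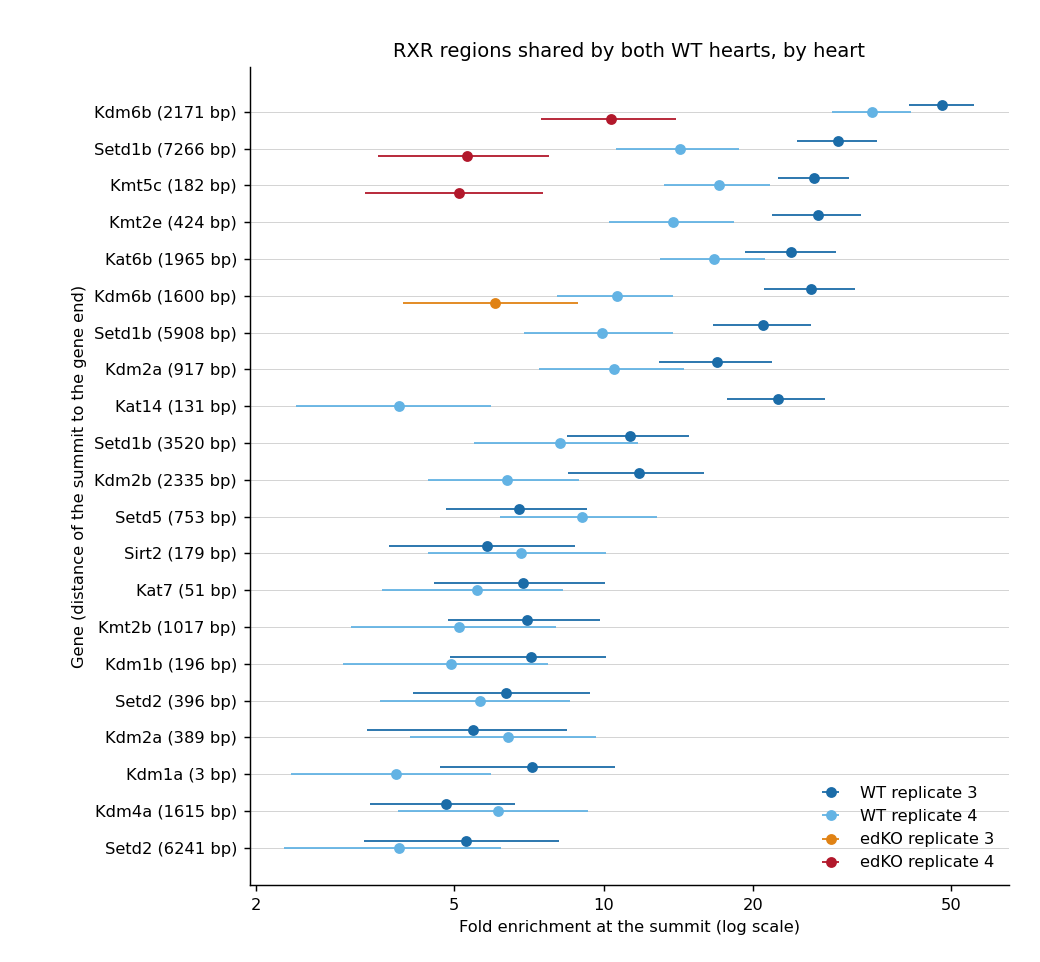
Fold enrichment (horizontal, log scale) of the 21 regions, ordered by their mean over the WT hearts and labelled with the gene and the distance of the summit to the gene end. Points are the 4 hearts and bars are 95% Poisson intervals of the summit fragments, which cover counting error only. Intervals of the WT hearts lie apart at Kmt2e and Kat14, among others, and overlap for the weak regions from Setd5 down, and only 4 regions carry an edKO point.

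Many of the regions lay close to gene ends. Of the 21 summits 14 lay within 1 kb of a protein-coding gene end (66.7%), beside 37% of all 4342 regions, and 11 of them within 1 kb of a histone lysine modifier gene. The assignment to genes favours such summits, since all regions more than 10 kb from these genes are left out. For 12 regions the strand of the gene was in the promoter table, and 10 of these lay nearer to the start than to the end. Another protein-coding gene lay within 10 kb of 16 of the 21 summits and was nearer than the modifier gene at 10. The shares of all regions nearer to a start, or with such neighbours, were not counted. With only the nearest gene counted, 11 of the 59 genes had a region (18.6%, against 10.5% of all genes). Region widths had a median of 723 bp, beside 512 bp overall.

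Among the other 43 genes, 28 had a peak in WT replicate 3 only. The share of all genes in that state was not counted. Of all protein-coding genes 42.4% had a peak of that heart and 15.2% a region in both WT hearts. The strongest folds of the 28 genes ran from 3.20 at Hdac10 to 12.99 at Setd4, with a median of 5.23. Setd4, a SET-domain methyltransferase gene, had 48 fragments at a summit 2960 bp away, in the promoter window of the carbonyl reductase gene Cbr1. Hdac7, a class IIa deacetylase known for its role in endothelial cells, had 4 peaks with folds of 11.4, 6.32, 4.74 and 4.31, the strongest on 42 fragments. Kdm5b, which removes methylation at promoters, reached 9.01, the trithorax gene Kmt2d, mutated in Kabuki syndrome, 7.75, and its relative Kmt2a 7.18. None of these 5 genes had a peak of WT replicate 4 within 10 kb of an end. The weakest summit of that heart held 12 fragments.

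Several genes with known roles in the heart were in this group. The class I deacetylases Hdac1 and Hdac2 had folds of 5.74 and 5.04 in WT replicate 3, on 19 and 18 fragments. The sirtuins Sirt1, a nuclear deacetylase, and Sirt6, which acts on chromatin, had 5.83 and 5.34. Setd7, a lysine methyltransferase of histone and other proteins, had 6.03, and the acetyltransferase genes Kat2a and Kat2b had 5.04 and 5.17. The Kat2a summit lay 9973 bp from the gene, close to the 10 kb limit, and that of the strongest Hdac1 peak 2574 bp away. The others lay within 1 kb of the gene end. These folds lie near the median of all peaks of WT replicate 3, 5.46.

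**Figure D5:**
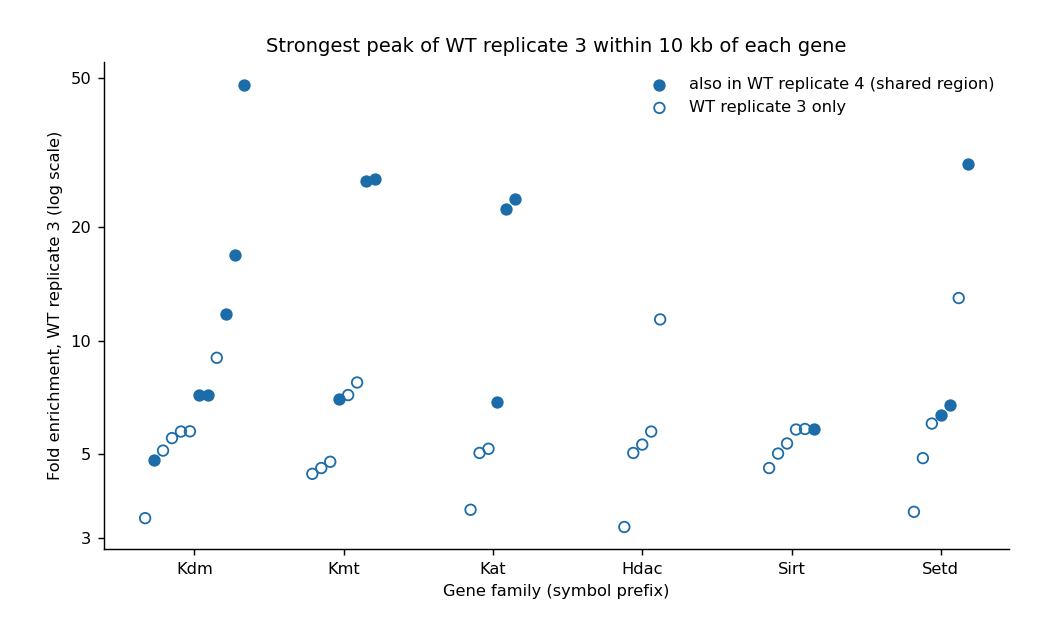
Fold enrichment of the strongest WT replicate 3 peak within 10 kb of each gene (vertical, log scale), by family (horizontal). Filled points are the 16 genes with a region in both WT hearts and open points the 28 genes with a peak in WT replicate 3 only. The highest open points are Setd4 at 12.99 and Hdac7 at 11.4, and no Hdac point is filled.

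No WT peak was found within 10 kb of the ends of 15 genes. Among them were Hdac4, Hdac5 and Hdac9 of class IIa, the mitochondrial sirtuin Sirt3, the acetyltransferase Kat6a, and Kdm6a, which removes the Polycomb methyl mark. Kdm6a, Kdm5c, Hdac6 and Hdac8 lie on chromosome X, where 8.7% of all protein-coding genes had a peak of WT replicate 3 and 2.17% a region in both WT hearts, and Kdm5d lies on chromosome Y. Of the 54 autosomal genes of the set 44 had a peak of WT replicate 3, beside 42.4% of all protein-coding genes, sex chromosomes included. The shares of all autosomal genes with such a peak, and of all genes without a WT peak, were not counted.

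The 10 kb limit left out regions inside long genes, and these included class IIa deacetylases. Just outside the limit, Hdac5 had regions at 10086 bp (folds 11.7 and 9.73) and 11064 bp (12.3 and 7.02) from a gene end, and Kdm6b had one at 10369 bp (5.35 and 6.38). The farthest regions inside it were those of Setd1b at 7266 and 5908 bp and of Setd2 at 6241 bp. When a summit anywhere inside a gene was counted, 20 genes had a region (33.9%, against 17.5% of all genes). The 4 added were Hdac5, Hdac4 (8.32 and 5.61, on chromosome 1 from 92179990 to 92180431), Hdac7 (11.1 and 4.67, on chromosome 15 from 97812006 to 97812829) and the demethylase gene Kdm4b (9.79 and 8.83, on chromosome 17 from 56337219 to 56337598). Hdac4, Hdac5 and Hdac7 are 3 of the 4 class IIa genes, and the other, Hdac9, had none.

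Genes that work with these enzymes were described in the same way. Of 33 histone lysine modifiers with other symbols 12 had a region in both WT hearts (36.4%, against 15.2% of all genes), with a median mean fold of 7.27. They were led by Dot1l, which methylates the nucleosome core (folds of 47.1 and 29.0), Jarid2, a Polycomb partner needed for heart development (33.4 and 37.9), and the corepressor gene Hr (19.2 and 10.9). Of 42 partner subunits 12 had one (28.6%, median 10.2), led by the NuRD remodeller Chd3 (34.3 and 29.6), its partner Mta1 (23.0 and 8.87) and the adaptor Tada2b (12.8 and 16.3). Summits lay 76, 627 and 4584 bp from the ends of Dot1l, Jarid2 and Hr. They lay 4331, 832 and 8691 bp from those of Chd3, Mta1 and Tada2b.

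Readers of modified lysines had 5 of 29 genes with a region (17.2%, against 15.2% of all genes), a share near the background. Their median was 6.30, beside 7.97 over all genes with a region, with Mllt3 (27.9 and 12.2), Brd2 (10.3 and 7.01) and Phf1 (7.75 and 4.84) in front. Enzymes that make or use the cofactors had 5 of 19 (26.3%, against the same 15.2%, median 10.1). Nmnat3, which makes NAD in mitochondria, had 21.8 and 9.63, and the genes for S-adenosylmethionine synthesis Mat2b and Mat2a had 13.2 and 9.79, and 10.5 and 9.63. The Nmnat3 summit lay 9467 bp from the gene. Genes and lists are not replicates, and no difference between the lists was tested.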

How the data were processed

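Peak lists of 4 RXR immunoprecipitates, 1 per heart, were analysed, and the inputs entered only as the authors' background. The submitters' processing notes name MACS3, BWA, SAMtools and cutadapt as tools and mm10 (GRCm38) as the build. Versions and settings are not given in these sources. The deposited lists give peak positions in bp, a fold enrichment (a ratio of summit signal to local background), −log10 p and −log10 q values, and a display score that was not used. The lowest deposited −log10 q were 1.37, 1.57, 3.53 and 1.47 in WT replicates 3 and 4 and edKO replicates 3 and 4. Summits were counted from 1. Where several WT peaks overlapped, the partners with the highest −log10 p were kept, 1 per heart, and a region took the summit of WT replicate 3. Gene end means either end of the RefSeq gene.

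Fragments at a summit were solved from the fold enrichment (pseudocount 1) and the Poisson upper tail, after scaling of the immunoprecipitate by 0.9669 in WT replicate 4 and 0.9918 in edKO replicate 3. The result met the deposited −log10 p within 0.05 for 100% of peaks in each list. Intervals are 95% exact Poisson or Clopper-Pearson and cover counting error only. The joining and the fragment search were tested on simulated data. Genes and peaks are not replicates, so gene counts carry no test and are set beside the share of all protein-coding genes. The peaks per heart were tested by exact permutation of the hearts. The labels do not say that a heart's number marks a litter or day, so hearts were unpaired. Every gene with a region in both WT hearts was named, as were the 5 strongest with a peak in WT replicate 3 only, genes with an edKO peak, a fixed list of genes with roles in the heart, and the 3 strongest of each other list. The genes and lists were chosen with earlier results of these data known. The promoter table gave the strand of 48 genes. Python 3.11.15, NumPy 2.4.6, pandas 2.3.3 and SciPy 1.17.1 were used.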

Additional observations from a re-analysis of the deposited data

How the results depend on the processing

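The number of genes with a region in both WT hearts, 16, stayed within 1.5 times under an overlap of 50% of the shorter peak, −log10 q of at least 5, −log10 p of at least 10, summits inside genes and the nearest gene only. It was 10 at a distance of 1 kb (16.9%, against 8.39% of all genes), 32 at 50 kb (54.2%, against 31.9% of all genes) and 10 with WT replicate 3 cut to the length of WT replicate 4 (16.9%, against 10.6%). Leaving out a WT heart leaves no region in both, so peaks of the remaining heart stand in for regions. This holds for the genes, the median fold and the positions. The genes then numbered 16 to 44, the 44 without WT replicate 4. The median fold of the strongest regions, 8.49, was 11.4 at −log10 p of at least 10, 17.0 with the cut list, and 5.82 to 6.61 with a WT heart left out. Regions within 1 kb of a modifier gene end, 11, became 5 with the cut list and 12 to 46 with a WT heart left out, and the share of WT replicate 4 peaks that overlapped fell from 96% to 64% with the cut list. The cut keeps fewer peaks by construction.

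The WT minus edKO difference in peaks per heart, 53, kept its direction in every alternative run, from 28.5 at 1 kb to 128.5 at 50 kb and from 23 to 83 with a heart left out, the 23 without WT replicate 3. With the heart number as a replicate block it was 53 with an exact permutation p = 0.5, the smallest that 2 pairs allow, and no call changed. Genes with an edKO peak, 3, became 1 at 1 kb, 4 at 50 kb and 2 with only the nearest gene counted. They were 1 to 3 with an edKO heart left out, 1 without edKO replicate 4. A gene without a peak may be bound below the 11 to 24 fragments that the weakest peaks held.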

Other observations

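Regions found in both WT hearts between 10 and 50 kb from a gene end, beyond those inside genes, added several genes whose own ends had none. Kmt5a, which methylates histone H4, had 3, the strongest 13772 bp from the gene with folds of 21.2 and 11.1 (WT replicates 3 and 4). The trithorax gene Kmt2c had 2, the strongest at 31096 bp (12.3 and 16.3). Setd1a, the paralog of Setd1b, had a region at 31437 bp (22.7 and 9.68) and Sirt6 one at 20909 bp (15.2 and 9.96). Within 50 kb of an end 31.9% of all genes had a region, a share that includes regions within 10 kb. Other genes lie between, so the assignment is by distance alone.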
